A study of Mus musculus with 16 samples.

Results

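The 100 genes described here are the odorant receptor genes of mouse chromosomes 10 and 16 that the arrays measured, 65 on chromosome 10 and 35 on chromosome 16. The rule that lists them uses position and name: the probe identifier had to start with the code of either chromosome. The symbol had to be Olfr followed by digits. 1 receptor of these chromosomes was left out by name. The 100 genes are part of 1080 receptor genes with such symbols and of 19505 genes tested in all. The rule itself uses no measured value, but the receptors were chosen with earlier results of these data known. Each of the 100 was represented by a single probe.

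Odorant receptors are G protein-coupled receptors in the cilia of olfactory sensory neurons, where they start the cAMP cascade that ends in action potentials. Their genes lie in clusters on many chromosomes, and each mature neuron expresses one allele of one of them, so the mRNA of a receptor in a cell population reports how many neurons chose it and how much RNA each of them holds. LHX2, EBF proteins and the adaptor LDB1 bind the enhancers of the clusters, known as Greek islands. S100a5, a calcium-binding protein gene, is transcribed in olfactory sensory neurons in proportion to their recent activity. In S100a5-tauGFP mice its promoter drives a green fluorescent protein (GFP) fused to tau, so that sorting for GFP enriches active neurons.

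The experiment, named the Kentucky assay by its submitters, compared the olfactory mucosa of S100a5-tauGFP mice given an odorant with that of mice given air. All 24 mice carried the reporter, were of both sexes and 7 to 12 weeks old, and spent 40 hours singly in chambers ventilated with clean air at 3.1 L/min. From hour 26, mice of the odor arm received 10-second pulses of indole/ionone every 20 minutes, and mice of the vehicle arm received pulses of filtered air. Which ionone isomer, which doses and whether a mixture was used are unstated in the labels. The dissociated mucosa was sorted by fluorescence in pools of 3 mice, with 4 pools per arm. This gave 4 groups of 4 samples: GFP+ cells of odor pools, GFP- cells of odor pools, GFP+ cells of vehicle pools and GFP- cells of vehicle pools. Each sample was 50 to 100 ng of total RNA on a Clariom S array, 16 arrays in all. The replicate unit is a pool of 3 mice, and the number of arrays limits the precision. The labels do not state the sort gate.

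Values are log2 levels as deposited. They are compared here within a probe, between samples, since signals of different probes do not rank the amounts of different RNAs. Enrichment means the log2 level in GFP+ cells minus that in GFP- cells of the same pool. A receptor is called higher or lower in GFP+ cells when limma's adjusted p, with Benjamini-Hochberg correction across the 19505 genes tested, is under 0.05. In such bulk samples a lower level from fewer neurons with a receptor and one from less receptor RNA per neuron cannot be told apart.

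The sort separated the samples by the reporter gene and by cell type. S100a5 was enriched by 1.31 ± 0.17 in odor pools (SE, adjusted p = 1.84e-04) and by 1.27 ± 0.17 in vehicle pools (adjusted p = 2.28e-04). Omp, the olfactory marker protein of mature neurons, averaged 18.50 ± 0.01 in GFP+ and 18.44 ± 0.07 in GFP- cells of odor pools (SD, n = 4 each), an enrichment of 0.06 ± 0.12 (SE, adjusted p = 0.80). These levels lie near the top of the deposited scale, which ends at 19.35, so the small difference does not show equal shares of mature neurons in the fractions. Of 14 marker genes of mature neurons, 1 was higher and 0 were lower in GFP+ cells of odor pools, and of 10 markers of immature neurons, 0 were higher and 7 lower. All 5 markers measured of globose basal and proliferating cells, 7 of 9 of sustentacular cells, 7 of 7 of microvillar and brush cells, 8 of 8 of neutrophils, 4 of 7 of macrophages and 3 of 3 of erythroid cells were lower in GFP+ cells, and none was higher. For comparison, 7.96% of all genes tested were higher and 10.6% lower in GFP+ cells of odor pools. The count for mature neurons is thus near that of any genes. The summed level of the neutrophil markers was 8.28 to 10.02 in GFP+ and 18.06 to 19.36 in GFP- cells of odor pools. For the immature markers the sum was 17.08 to 17.25 in GFP+ and 17.01 to 17.50 in GFP- cells of odor pools. The brightest probe, Ncam1 (mean 16.52 in GFP+ and 16.35 in GFP- cells), weighs most in that sum. The sum therefore does not reflect the 7 markers called lower. In the same pools the sum was 6.99 to 7.34 in GFP+ and 10.44 to 12.40 in GFP- cells for basal cells, 14.46 to 14.95 in GFP+ and 16.20 to 16.39 in GFP- cells for sustentacular cells, and 8.30 to 8.63 in GFP+ and 12.33 to 13.30 in GFP- cells for microvillar cells. It was 9.37 to 10.75 in GFP+ and 13.92 to 15.64 in GFP- cells for macrophages. The part of these other cell types in the enrichments below was not tested. The GFP- sample of odor replicate 3 stood apart at 58.9 on the second principal component, against 24.6 or less in the other 15 samples. The sample at 24.6 was the GFP- sample of vehicle replicate 3. The pools numbered 3 of both arms had Y-linked genes (Eif2s3y, Uty, Kdm5d) at 2.76 to 4.09, against 6.42 to 12.09 in the other pools. The part of that difference in the values of these pools was not tested.

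In the deposited values more receptors of chromosome 10 were lower in GFP+ cells than higher, and most of chromosome 16 were higher. With each array centred on its median, chromosome 10 had 21 higher and 21 lower in odor pools, so lower calls no longer outnumbered higher ones. Chromosome 16 then had 25 higher and 4 lower. Centring also brought the calls over all 19505 genes to 10682 higher and 1664 lower in odor pools. Relative to the median of all genes, the median of chromosome 10 in odor pools was -0.56 either way, which centring cannot change. As deposited, 13 of 65 receptors of chromosome 10 (20%) were higher in GFP+ cells of odor pools and 27 (41.5%) lower, with a median enrichment of -0.44. On chromosome 16, 23 of 35 (65.7%) were higher and 4 (11.4%) lower, with a median of 1.52. Over all genes tested 7.96% were higher and 10.6% lower, and the median was 0.11. Over the 980 receptors outside these sets, 44.1% were higher and 22.1% lower, and the median was 0.51. The share of chromosome 10 was thus below that of other receptors for higher calls and above it for lower calls, and that of chromosome 16 was the reverse. Both shares of higher calls exceeded those of all genes.

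The vehicle pools, which were separate mice, gave nearly the same split. In these 12 receptors of chromosome 10 (18.5%) were higher and 30 (46.2%) lower, with a median of -0.59. On chromosome 16, 22 (62.9%) were higher and 7 (20%) lower, with a median of 1.37. The shares were 8.86% and 10.8% over all genes and 44.2% and 24.4% over the other receptors. Leaving out odor replicate 3, which stood apart, left 8 higher receptors on chromosome 10 in odor pools, against 13 with all pools. With centring, chromosome 10 had 22 higher and 24 lower in vehicle pools, and its median enrichment was -0.10 in odor pools and -0.24 in vehicle pools. Over all 19505 genes 10604 were higher and 1661 lower in vehicle pools with centring. Leaving out vehicle replicate 4 left 4 lower receptors on chromosome 16 in vehicle pools.

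The order of the chromosomes held in each pool. The median enrichment of chromosome 10 receptors was -0.74, -0.51, -0.01 and -0.27 in odor replicates 1 to 4, and that of chromosome 16 receptors was 1.92, 1.38, 1.25 and 1.33 in the same pools. In vehicle replicates 1 to 4 it was -0.58, -0.63, -0.58 and -0.55 on chromosome 10 and 1.35, 1.65, 0.99 and 1.38 on chromosome 16. Chromosome 10 lay below chromosome 16 in 8 of 8 pools, with differences of -2.66 to -1.26, and the ranges of their medians did not overlap. Centring arrays moves both chromosomes of a pool alike and leaves that difference as it is. The median of the other receptors lay between them in every pool, at 0.27 to 0.61. Among the 12 chromosomes with at least 20 receptors, chromosome 10 had the lowest median in odor pools and chromosome 16 the highest. Their nearest neighbours in that order were chromosome 6 at -0.24 and chromosome 14 at 1.36. The receptors described here were chosen with earlier results of these data known, so this order is a description. Members of a chromosome are not replicates, so no p is given for a chromosome's median.

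**Figure D1:**
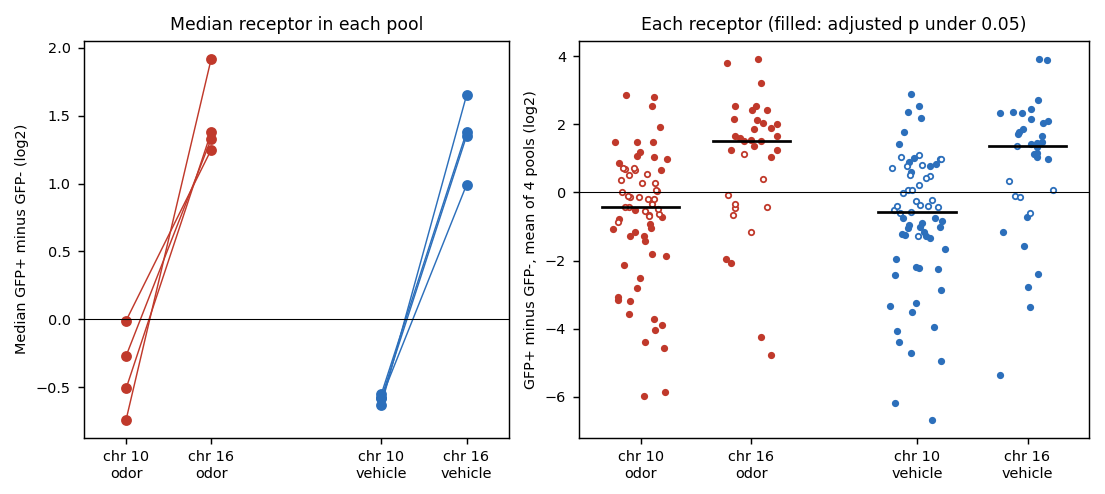
Left, the median enrichment (GFP+ minus GFP- level, log2) of the receptors of chromosome 10 (65) and chromosome 16 (35) in each pool, a line joining the chromosomes of 1 pool. Right, the enrichment of each receptor as the mean of 4 pools in odor and vehicle pools, filled where the adjusted p is under 0.05, with the median as a bar: chromosome 10 lies below chromosome 16 in 8 of 8 pools.

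Across the arrays of an arm, the ranges of the median level of the fractions were apart on chromosome 10 and overlapped on chromosome 16. The median level of chromosome 10 receptors was 7.80 to 8.33 in GFP+ and 8.94 to 9.90 in GFP- cells of odor pools, and 8.07 to 8.47 in GFP+ and 9.18 to 9.59 in GFP- cells of vehicle pools. These ranges did not overlap within either arm. On chromosome 16 the median level was 9.31 to 9.69 in GFP+ and 8.83 to 9.32 in GFP- cells of odor pools. In vehicle pools it was 8.94 to 9.77 in GFP+ and 8.64 to 9.30 in GFP- cells, and the ranges overlapped in both arms. Within pools the chromosome 16 median was higher in GFP+ cells in every odor pool and in vehicle replicates 1, 2 and 4. In vehicle replicate 3 it was lower, at 8.94 against 9.30. These medians run over different probes, and the enrichments above are the measure within a pool. Of the 100 receptors, 76 exceeded the array's background, the median of 23 antigenomic probes at 5.63 to 6.05, on all 16 arrays. Olfr768 and Olfr782 lay under it on all 16, so no fold is given for them although limma called Olfr768 lower in both arms and Olfr782 lower in vehicle pools.

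On chromosome 10 the receptors fall into 2 clusters when neighbours under 1 Mb apart are joined (RefSeq order, assembly GRCm38.p6). The first, from Olfr1357 to Olfr57, has 9 measured members, of which 4 were higher and 3 lower in odor pools and 2 higher and 3 lower in vehicle pools. The second, from Olfr9 to Olfr827, has 56, of which 9 were higher and 24 lower, with a median enrichment of -0.51. Chromosome 16 holds 2 isolated genes, Olfr161 and Olfr19, a cluster of 8 from Olfr164 to Olfr171 with 6 higher and 0 lower (median 1.88), and a cluster of 25 from Olfr172 to Olfr209 with 17 higher and 3 lower (median 1.52). Genes on both sides of 0 stood next to each other. Of 63 neighbouring pairs on chromosome 10, 15 were called in the same direction and 9 in opposite directions, with a median absolute difference of 1.60 in enrichment. Of 31 pairs on chromosome 16, 14 were called alike and 6 oppositely, with a median difference of 2.12. Of all pairs within a cluster of chromosome 10, 188 share a subfamily number (given below), with 45 alike and 18 opposite. The 1388 other pairs there had 276 alike and 210 opposite. On chromosome 16 it was 47 alike and 15 opposite of 92 pairs with a shared number, and 107 and 36 of 236 others. Neighbours are among these pairs, and their shares were not tested.

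**Figure D2:**
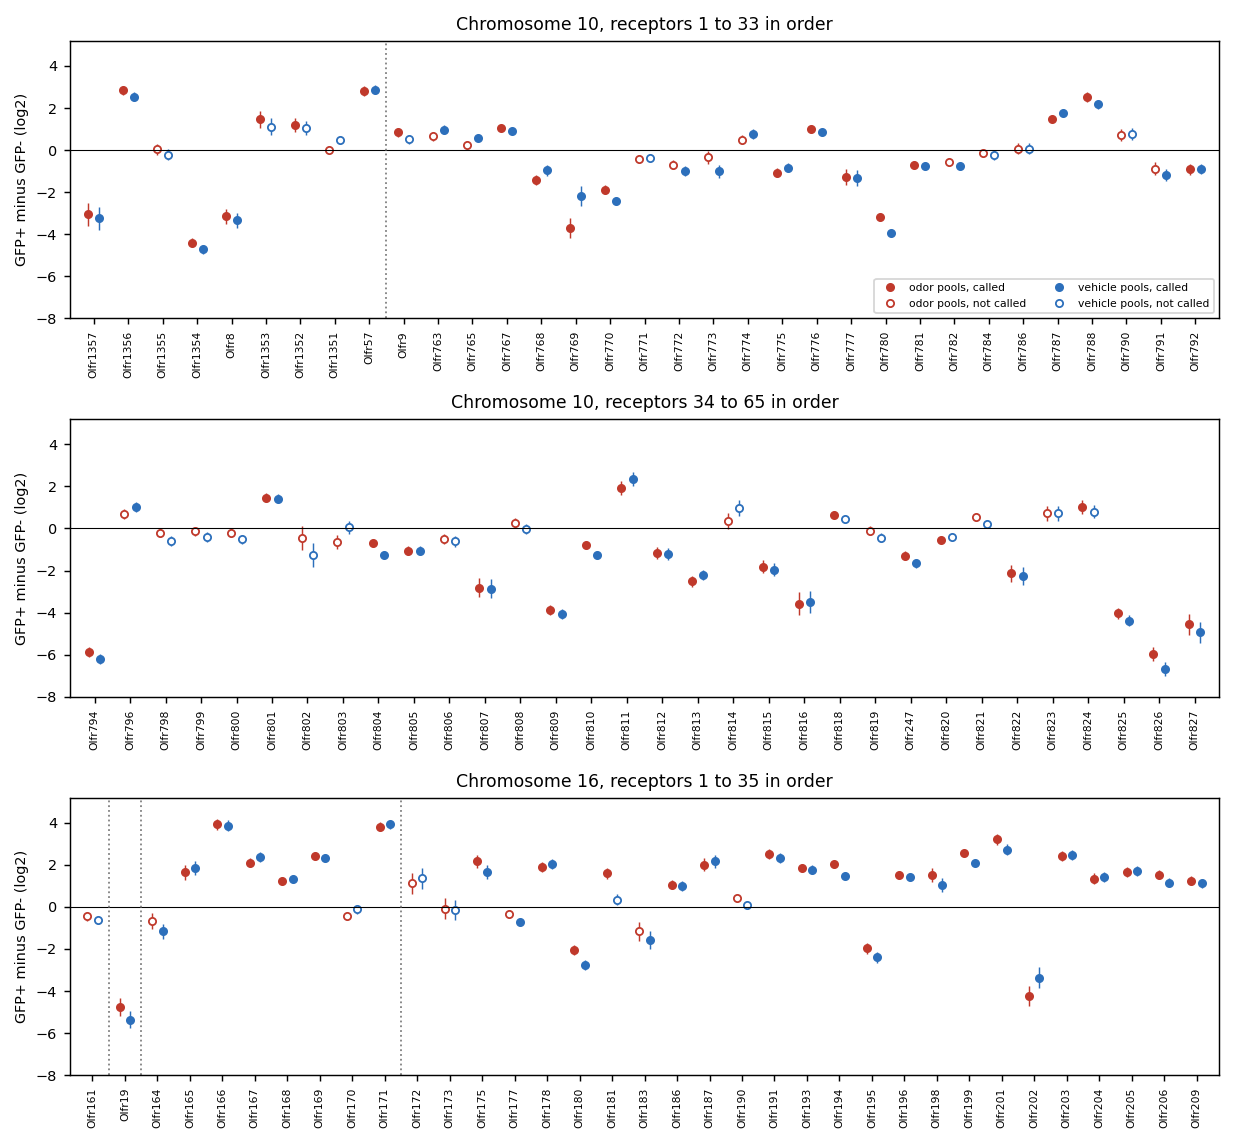
Enrichment (GFP+ minus GFP- level, log2, mean of 4 pools with its SE from the fit) of each receptor in the order of its chromosome, odor pools in red left of vehicle pools in blue, filled where the adjusted p is under 0.05, with dotted lines between clusters. Chromosome 16 receptors lie mostly above 0 and the end of chromosome 10 (Olfr825 to Olfr827) lies at -4.03 to -5.97 in odor pools, in the same order of size in vehicle pools.

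The lowest enrichments on chromosome 10 were those of Olfr826 and Olfr794, both lower in GFP+ than in GFP- cells. Olfr826 was at 5.65, 8.03, 6.82 and 5.58 in GFP+ cells of odor replicates 1 to 4, against 12.01, 12.75, 12.26 and 12.92 in GFP- cells of the same pools. In vehicle pools it was at 6.44, 5.89, 5.90 and 5.02 in GFP+ cells and 12.74, 12.51, 12.40 and 12.28 in GFP- cells. The fractions were far apart in every pool, and in each arm the GFP+ value exceeded background on only 2 of 4 arrays. The enrichment was -5.97 ± 0.34 in odor pools (SE, limma adjusted p = 1.86e-07) and -6.67 ± 0.34 in vehicle pools (adjusted p = 7.95e-08).

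Olfr794 was at 6.59, 7.42, 7.18 and 7.08 in GFP+ cells of odor pools, against 13.35, 12.99, 12.91 and 12.47 in GFP- cells. Its GFP+ values were all above background. In vehicle pools it was at 6.59, 6.93, 7.26 and 6.28 in GFP+ and 13.16, 12.77, 12.96 and 12.92 in GFP- cells. The enrichment was -5.86 ± 0.23 in odor and -6.19 ± 0.23 in vehicle pools (SE, limma adjusted p = 1.54e-08 and 1.04e-08). Its GFP- levels differed by under 1 log2 unit over the 8 pools. Olfr827 (-4.56 ± 0.49), Olfr1354 (-4.40 ± 0.22) and Olfr825 (-4.03 ± 0.26) completed the 5 lowest in odor pools. All 3 were lower in vehicle pools too, by the same test. Some GFP+ values of Olfr825 and Olfr827 in odor pools were under background, down to 5.45 and 5.28.

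The highest enrichments on chromosome 10 were smaller. Olfr1356 was at 10.93, 11.59, 10.78 and 12.44 in GFP+ cells of odor pools, against 8.60, 9.09, 7.05 and 9.61 in GFP- cells. The groups did not overlap, and the lowest value in GFP- cells was that of replicate 3. Enrichment was 2.85 ± 0.22 in odor and 2.54 ± 0.22 in vehicle pools (SE, limma adjusted p = 2.21e-06 and 5.91e-06). Olfr57, the last gene of the first cluster, reached 2.81 ± 0.23 in odor and 2.88 ± 0.23 in vehicle pools. Olfr788 was at 14.69, 14.22, 14.18 and 14.64 in GFP+ cells of odor pools, against 11.96, 12.18, 11.85 and 11.66 in GFP- cells, an enrichment of 2.52 ± 0.22. Olfr811 at 1.93 ± 0.32 and Olfr787 at 1.49 ± 0.17 were next. Olfr776 was at 12.28 to 13.15 in GFP+ and 11.42 to 12.10 in GFP- cells of odor pools, an enrichment of 0.99 ± 0.18 (adjusted p = 0.00248). By the fitted values, no receptor of chromosome 10 was more than 8-fold higher in odor pools and 11 were more than 8-fold lower. Among the 11 is Olfr780, for which only a smaller bound holds (given with the threshold cases). Olfr8 and Olfr809 exceeded background on 2 of 4 GFP+ arrays of odor pools and Olfr769 on 1 of 4. Their folds thus rest partly on values under background. On chromosome 16, 3 were more than 8-fold higher and 2 more than 8-fold lower.

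**Figure D3:**
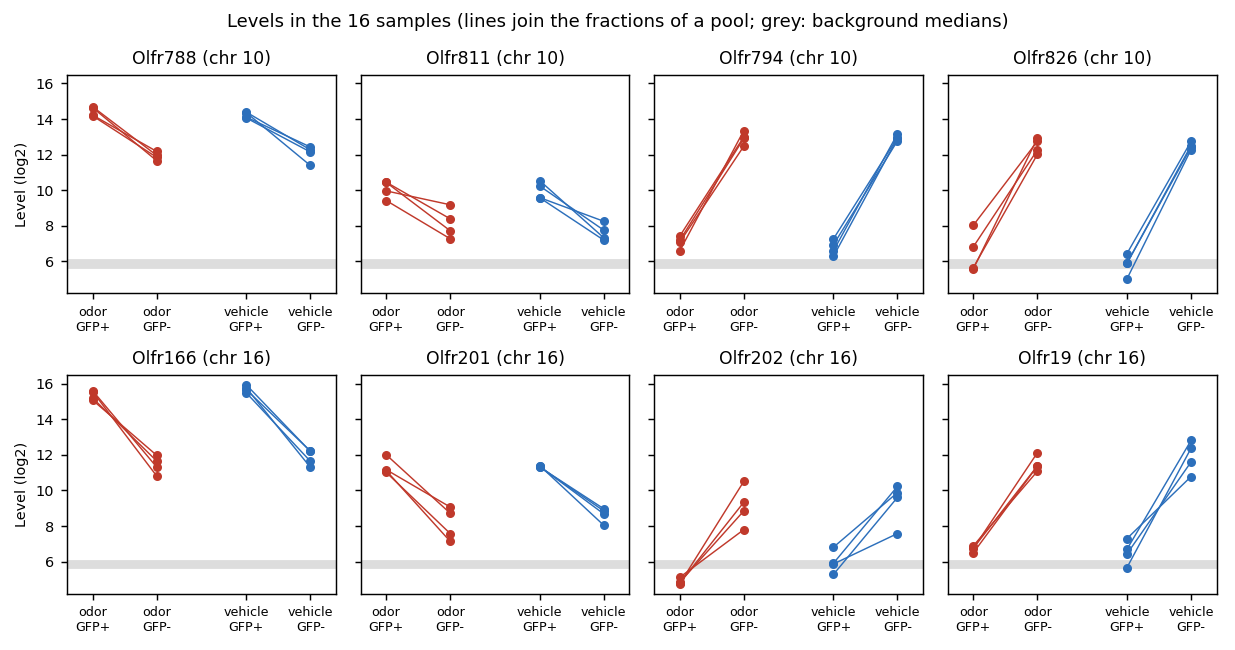
Log2 level of 4 receptors of chromosome 10 (top) and 4 of chromosome 16 (bottom) in the 16 samples, GFP+ left of GFP-, odor pools in red and vehicle pools in blue, with lines joining the 2 fractions of a pool and a grey band for the background medians of 5.63 to 6.05. Olfr794, Olfr826, Olfr202 and Olfr19 are lower in GFP+ cells in both arms, and Olfr788, Olfr811, Olfr166 and Olfr201 are higher in that fraction in either arm.

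On chromosome 16 the highest enrichment was that of Olfr166. It was at 15.56, 15.08, 15.20 and 15.61 in GFP+ cells of odor pools, against 10.82, 11.98, 11.66 and 11.32 in GFP- cells. In vehicle pools it was at 15.77, 15.49, 15.67 and 15.94 in GFP+ cells and 11.31, 11.65, 12.22 and 12.20 in GFP- cells. The fractions were separate in every pool, with an enrichment of 3.92 ± 0.25 in odor and 3.87 ± 0.25 in vehicle pools (SE, limma adjusted p = 4.83e-07 and 5.49e-07). Olfr171 followed at 3.81 ± 0.21 in odor and 3.92 ± 0.21 in vehicle pools, then Olfr201 at 3.21 ± 0.26 and 2.71 ± 0.26, Olfr199 at 2.54 ± 0.14 and 2.08 ± 0.14, and Olfr191 at 2.52 ± 0.23 and 2.34 ± 0.23. The GFP+ levels of Olfr191 in odor pools were 14.46 to 15.04 and its GFP- levels 12.01 to 12.42. Olfr169 was enriched by 2.43 ± 0.18 in odor and 2.33 ± 0.18 in vehicle pools.

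4 receptors of chromosome 16 were lower in odor pools. Olfr19 was at 6.76, 6.50, 6.89 and 6.74 in GFP+ cells of odor pools, against 11.38, 11.37, 11.08 and 12.12 in GFP- cells, an enrichment of -4.76 ± 0.41 (SE, limma adjusted p = 5.33e-06), with -5.36 ± 0.41 in vehicle pools. Olfr202 was under background on all 4 GFP+ arrays of odor pools, at 4.79, 4.76, 5.12 and 4.84, against 9.34, 10.51, 7.80 and 8.85 in GFP- cells. Set against the array background, it was at least 9.40-fold lower in GFP+ cells of odor pools (limma adjusted p = 5.34e-05). In vehicle pools it was measured in GFP+ cells on 3 of 4 arrays, and its enrichment was -3.36 ± 0.48 (adjusted p = 3.42e-04). Olfr180 at -2.06 ± 0.25 and Olfr195 at -1.96 ± 0.26 were lower too, and both were lower in vehicle pools. Olfr161 was under background in GFP+ cells on all arrays of both arms, and Olfr164, at -0.67 ± 0.37, did not pass the test in odor pools (adjusted p = 0.237). Its vehicle value of -1.16 ± 0.37 (adjusted p = 0.0463) was lost in 7 of 15 alternative settings, with adjusted p from 0.0191 to 0.189.

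Around the threshold stood Olfr820, at -0.53 ± 0.16 (adjusted p = 0.0454), the last call in odor pools, and Olfr796, at 0.69 ± 0.22 (adjusted p = 0.0504), the first receptor outside it. Both lie on chromosome 10. Olfr820 was called in 6 of 15 alternative settings, with adjusted p from 0.00775 to 0.297, and Olfr796 in 6 of 15, with adjusted p from 0.00311 to 0.191. On chromosome 10 Olfr780, under background on all 4 GFP+ arrays of each arm, was at least 3.93-fold lower in odor pools and at least 5.36-fold lower in vehicle pools, and Olfr792 at least 1.32-fold lower in odor pools.

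The RefSeq synonyms give MOR subfamily numbers, a grouping of receptors by protein sequence, for 97 of the 100 genes, and subfamilies were not shared between the chromosomes. Genes named from here on for their subfamily or neighbours were chosen after their values were seen. On chromosome 10 the 13 members of MOR114 lay on 1 side of 0: 0 were higher and 7 lower in odor pools, and 13 of 13 had a negative enrichment, from -5.86 to -0.13. In vehicle pools 10 of 13 were lower and again 13 of 13 were negative. With median centring 10 of 13 were negative and 5 lower in odor pools, and 13 of 13 negative and 7 lower in vehicle pools, and with quantile normalization 12 of 13 were negative in odor pools. Olfr768, under background on all arrays, is among the 7, and Olfr780, with only a bound, is too. MOR113 had 4 of 5 and MOR108 3 of 4 lower in both arms, and none higher in the deposited values, while 1 of MOR113 was higher in vehicle pools under either scaling. MOR108 had 2 of 4 lower in both arms under either scaling, and MOR113 3 of 5 in odor pools with median centring. MOR210 had 1 of 5 higher and 3 lower in odor pools (median -4.03), and 0 higher and 3 lower in vehicle pools. MOR110 had 3 of 9 higher and 3 lower in odor pools, and 2 higher and 4 lower in vehicle pools. MOR111 had 3 of 8 higher and 1 lower in odor pools, and 4 higher and 1 lower in vehicle pools. MOR139 had 3 of 6 higher and 1 lower in odor pools, and 1 higher and 1 lower in vehicle pools. MOR139 lies in the first cluster of chromosome 10 and the others in the second.

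On chromosome 16 MOR182 was nearly uniform. In each arm 9 of its 10 members rose in the GFP+ fraction, by 1.24 to 3.21 in odor pools, and Olfr202 alone was lower. MOR183 had 4 of 6 higher and 0 lower in odor pools, and 4 higher and 1 lower in vehicle pools. MOR184 was split, with 3 of 8 higher (Olfr175, Olfr178 and Olfr181) and 2 lower (Olfr180 and Olfr195) in odor pools, and 2 higher and 3 lower in vehicle pools. MOR273 had 2 of 3 higher in each arm, with Olfr170 at -0.44 ± 0.20 in odor pools (limma adjusted p = 0.165). Pairs of the same subfamily within a cluster differed by a median of 1.33 in enrichment on chromosome 10 (188 pairs) and 1.26 on chromosome 16 (92 pairs), and other pairs within a cluster by 1.56 (1388 pairs) and 1.33 (236 pairs). The differences between these medians were not tested, since pairs share genes.

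**Figure D4:**
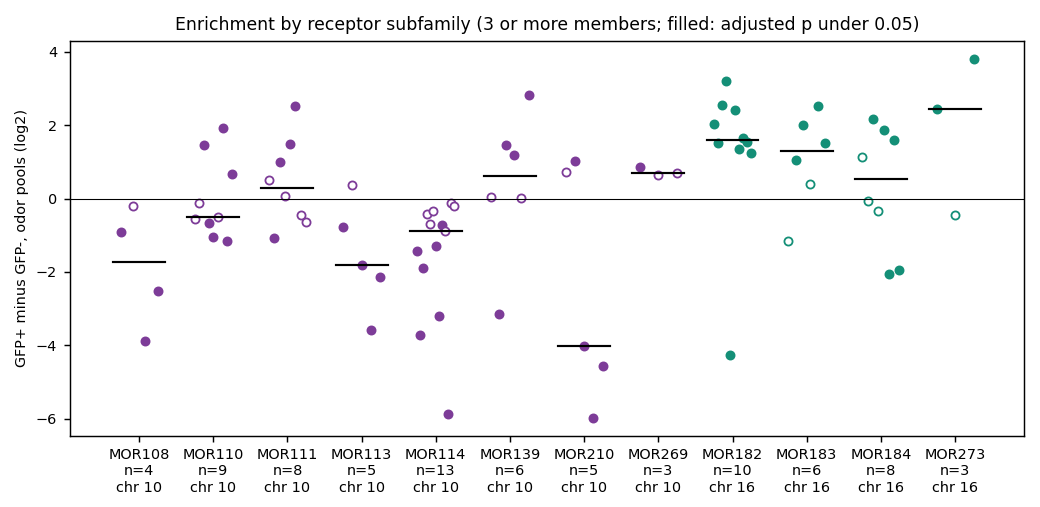
Enrichment (GFP+ minus GFP- level, log2, mean of the 4 odor pools) of each receptor in the 12 MOR subfamilies with 3 or more members, chromosome 10 in purple and chromosome 16 in green, filled where the adjusted p is under 0.05, with the median as a bar. All 13 members of MOR114 lie below 0 and 9 of the 10 members of MOR182 above it.

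Close relatives can be compared in the RefSeq start windows (assembly GRCm38.p6), which hold 250 bases before the annotated start and 50 after it. 80 of the 100 receptors have such a window and 20 do not. In 66 of the 80 the annotated start is the start codon, since base 251 opens the coding sequence, so that these windows show the flank of the open reading frame and not a promoter. The lines below give Olfr826 and Olfr825, both lower in GFP+ cells, then the opposite pair Olfr201 and Olfr202 of MOR182, and Olfr169 and Olfr170 of MOR273. Capitals mark the start codon.
Olfr826 (chr10:130180829-130181128, minus strand): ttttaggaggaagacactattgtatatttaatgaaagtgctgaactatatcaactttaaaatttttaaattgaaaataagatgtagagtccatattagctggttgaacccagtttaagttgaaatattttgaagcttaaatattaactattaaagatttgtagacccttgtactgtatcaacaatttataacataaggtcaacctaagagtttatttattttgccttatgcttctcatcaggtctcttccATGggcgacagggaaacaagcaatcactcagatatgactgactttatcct
Olfr825 (chr10:130163275-130163574, minus strand): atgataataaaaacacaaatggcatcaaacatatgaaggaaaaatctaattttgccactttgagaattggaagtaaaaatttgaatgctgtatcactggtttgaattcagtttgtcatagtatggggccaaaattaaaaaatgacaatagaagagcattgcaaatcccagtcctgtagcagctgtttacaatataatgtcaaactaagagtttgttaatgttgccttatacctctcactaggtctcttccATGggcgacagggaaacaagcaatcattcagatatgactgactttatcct
Olfr202 (chr16:59284446-59284745, minus strand): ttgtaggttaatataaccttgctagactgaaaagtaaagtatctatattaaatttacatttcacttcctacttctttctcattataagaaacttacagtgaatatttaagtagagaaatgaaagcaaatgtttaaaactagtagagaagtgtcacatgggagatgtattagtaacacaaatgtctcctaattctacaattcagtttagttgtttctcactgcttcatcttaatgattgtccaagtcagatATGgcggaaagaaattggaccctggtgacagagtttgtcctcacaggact
Olfr201 (chr16:59269616-59269915, minus strand): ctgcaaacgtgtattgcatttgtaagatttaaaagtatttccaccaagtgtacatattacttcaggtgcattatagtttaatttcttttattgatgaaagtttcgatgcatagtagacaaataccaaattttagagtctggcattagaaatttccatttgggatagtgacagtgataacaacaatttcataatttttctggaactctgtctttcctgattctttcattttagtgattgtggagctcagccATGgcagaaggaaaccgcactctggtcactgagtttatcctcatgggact
Olfr170 (chr16:19606617-19606916, minus strand): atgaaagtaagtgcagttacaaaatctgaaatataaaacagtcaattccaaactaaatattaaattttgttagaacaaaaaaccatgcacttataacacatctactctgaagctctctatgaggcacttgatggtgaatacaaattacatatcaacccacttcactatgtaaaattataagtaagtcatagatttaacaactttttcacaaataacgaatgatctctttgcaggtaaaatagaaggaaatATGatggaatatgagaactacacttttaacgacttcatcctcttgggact
Olfr169 (chr16:19566832-19567131, minus strand): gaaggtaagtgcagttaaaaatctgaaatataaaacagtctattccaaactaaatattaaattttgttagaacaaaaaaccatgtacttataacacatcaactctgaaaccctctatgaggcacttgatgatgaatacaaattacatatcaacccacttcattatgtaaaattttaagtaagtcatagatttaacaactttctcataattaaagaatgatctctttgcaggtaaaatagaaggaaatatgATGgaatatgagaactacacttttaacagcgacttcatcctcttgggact

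Olfr825 and Olfr826 share 98% of the first 50 coding bases but 69.4% of the 300-base window, and both were lower, at -4.03 and -5.97 in odor pools. Olfr201 and Olfr202 share 60.1% of the window and 78% of its coding part, and differed in direction, at 3.21 and -4.25. Olfr169 and Olfr170 are alike over 93.7% of the window, and their enrichments were 2.43 and -0.44. In odor pools Olfr169 was at 14.21 to 15.71 in GFP+ and 12.07 to 12.73 in GFP- cells, without overlap. Olfr170 was at 10.09 to 11.05 in GFP+ and 10.54 to 11.32 in GFP- cells, with overlap. Probe sequences were not used here, so cross-hybridisation between such relatives was not tested.

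14 windows do not open with a start codon and so lie at an annotated transcript start. Homeodomain core motifs were searched on both strands, namely TAATTA, its variant TAATTG and its variant TAATGA, which share their first 4 letters. At least 1 of them was in 7 of the 14 (50%), against 57.9% of 259 such windows over all receptors and 19.9% of 32851 windows over all genes. Of the 66 windows of these receptors that open a coding sequence, 40 (60.6%) held at least 1 as well. The motifs were thus no more frequent in the 14 windows than in those flanks of open reading frames. Olfr181, higher in GFP+ than in GFP- cells of odor pools, and its MOR184 neighbour Olfr180, lower in GFP+ cells, are shown because their calls are opposite. Capitals mark matches to the homeodomain motifs.
Olfr181 (chr16:58928595-58928894, minus strand): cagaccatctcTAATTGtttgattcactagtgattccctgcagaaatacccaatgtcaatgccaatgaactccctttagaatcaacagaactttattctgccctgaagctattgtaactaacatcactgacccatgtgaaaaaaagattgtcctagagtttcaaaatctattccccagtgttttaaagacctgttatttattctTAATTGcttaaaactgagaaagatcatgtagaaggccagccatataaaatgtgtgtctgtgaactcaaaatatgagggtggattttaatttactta
Olfr180 (chr16:58918437-58918736, minus strand): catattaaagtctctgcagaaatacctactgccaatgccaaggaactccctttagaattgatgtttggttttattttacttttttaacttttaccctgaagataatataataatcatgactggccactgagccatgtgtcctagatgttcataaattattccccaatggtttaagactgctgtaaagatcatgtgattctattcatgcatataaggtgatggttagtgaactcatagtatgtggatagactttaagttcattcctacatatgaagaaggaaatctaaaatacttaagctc
The window of Olfr181 holds TAATTG at 2 places and that of Olfr180 holds none of the 3 motifs on either strand. They share 54.5% of their bases.

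No receptor of either chromosome was called in the comparisons of odor with vehicle. In the enrichment difference, odor minus vehicle, 0 of 100 receptors passed the threshold, as did 0% of all 19505 genes, and 5 receptors had an unadjusted p under 0.05. In GFP+ cells 0 of 100 passed, against 0% of all genes, and 5 had an unadjusted p under 0.05. In GFP- cells 0 of 100 passed, against 0.00513% of all genes (1 gene, lower), and 1 had an unadjusted p under 0.05. Over all genes 654, 1070 and 697 had such a p in these comparisons. The 95% confidence intervals, which are not adjusted for the number of genes, reached a median on either side of 0.71 on chromosome 10 and 0.74 on chromosome 16 for the enrichment difference. In GFP+ cells these widths were 0.60 and 0.57, and in GFP- cells 0.53 and 0.59. A p that misses the threshold therefore does not show that odor and vehicle pools were alike, and changes beyond these widths can be missed too after adjustment.

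Olfr181, with the smallest p of the enrichment difference, was enriched by 2.65, 1.05, 1.25 and 1.42 in odor replicates 1 to 4 and by 0.85, 0.45, -0.30 and 0.38 in vehicle replicates 1 to 4. Every odor pool lay above every vehicle pool. It was the 1 receptor of 100 whose pools did not overlap between arms in enrichment, while 2.02% of all genes had no overlap. Its enrichment was 1.59 ± 0.25 in odor pools (SE, limma adjusted p = 7.77e-04) and 0.34 ± 0.25 in vehicle pools (adjusted p = 0.388). The difference was 1.25 ± 0.36 (unadjusted p = 0.00502, adjusted p = 1, 95% interval 0.46 to 2.03). Odor minus vehicle was 0.71 ± 0.28 in GFP+ cells (adjusted p = 0.891) and -0.54 ± 0.25 in GFP- cells (adjusted p = 1). The others with an unadjusted p under 0.05 in this comparison were Olfr194 (0.55 ± 0.24), Olfr199 (0.46 ± 0.19), Olfr769 (-1.51 ± 0.66) and Olfr780. Olfr769 was above background on 1 of 4 GFP+ arrays of odor pools and 3 of 4 of vehicle pools. Olfr780 has only a bound in each arm, so no size is given for its difference.

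In GFP+ cells the smallest p was that of Olfr202. Its level was 4.79, 4.76, 5.12 and 4.84 in odor replicates 1 to 4, all under background, against 5.91, 6.81, 5.87 and 5.28 in vehicle replicates 1 to 4. The odor values lay below every vehicle value, the 1 receptor of 100 without overlap here, against 3.21% of all genes. The vehicle value of replicate 4 was under background too, so no size is given (unadjusted p = 0.00195, limma adjusted p = 0.891). In GFP+ cells the others with an unadjusted p under 0.05 were Olfr810 (0.59 ± 0.23), Olfr181, Olfr769 (-1.21 ± 0.48, with the arrays under background named above) and Olfr1351, which was above background on 0 of 4 GFP+ arrays of odor pools and 1 of 4 of vehicle pools and gets no size. In GFP- cells it was Olfr195 (-0.60 ± 0.27, unadjusted p = 0.0452), and 0 of 100 were without overlap, against 2.48% of all genes.

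**Figure D5:**
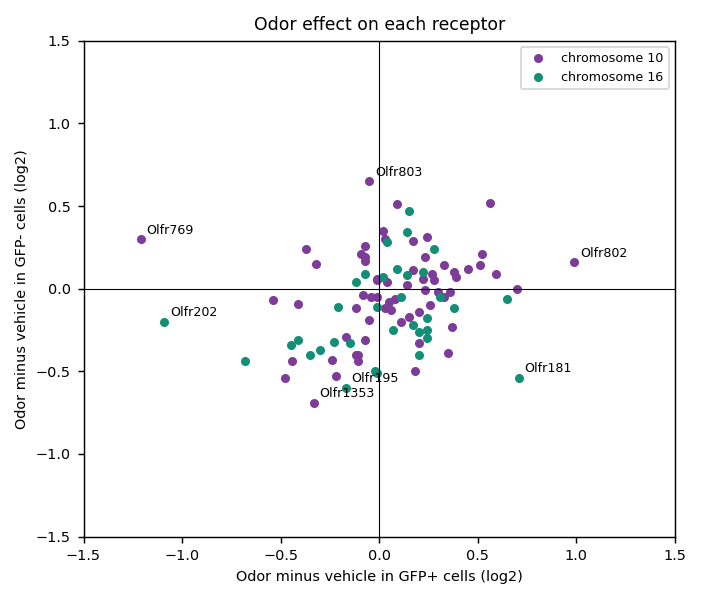
Difference of odor minus vehicle (log2) in GFP+ cells, horizontal, and in GFP- cells, vertical, for each receptor of chromosome 10 (purple, 65) and chromosome 16 (green, 35), each a difference of means of 4 pools. None of the 100 passed the test in either comparison, and the labelled points are receptors far from 0. Values under background, such as those of Olfr202 in GFP+ cells of odor pools, are plotted as measured.

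Between the arms, calls were mostly shared. 30 receptors were higher and 30 lower in both arms, 22 were called in neither, 7 in odor pools alone and 11 in vehicle pools alone, and 0 in opposite directions. A call in 1 arm alone does not show a difference between arms, since none passed the test of the difference. The sign of the enrichment was shared by 62 of 65 receptors on chromosome 10 and 35 of 35 on chromosome 16, and across the 100 receptors the 2 arms correlated at r = 0.98. These are different mice, but the receptors share the sort and the arrays, so that r is a description.

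Of 23 genes of receptor choice and trafficking, 0 were higher and 2 lower in GFP+ cells of odor pools, with a median of 0.00, and 0 were higher and 1 lower in vehicle pools. Lbr, the lamin B receptor, a nuclear envelope protein that is lost as olfactory neurons mature, fell by 1.62 (SE 0.18, limma adjusted p = 5.35e-05), and Tshz1 had -0.56 ± 0.15 (adjusted p = 0.0259). Lhx2 was at 0.12 ± 0.13 (adjusted p = 0.59) and Ldb1 at -0.25 ± 0.12 (adjusted p = 0.194). Of 17 odor transduction genes, 3 were higher and 0 lower in odor pools, and 6 higher and 0 lower in vehicle pools. The 3 were Slc8a1, a sodium-calcium exchanger (1.16 ± 0.16), Pde1c, a cyclic nucleotide phosphodiesterase (0.67 ± 0.12), and Ano2, a calcium-gated chloride channel (0.44 ± 0.12). Over all genes 7.96% were higher and 10.6% lower in odor pools, and 8.86% and 10.8% in vehicle pools.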

How the data were processed

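RNA of GFP+ and GFP- cells of 8 pools was measured on 16 Clariom S arrays. The log2 values were used as the authors deposited them, made with Affymetrix Expression Console per the submitters' processing notes. Its version and its steps of background correction, normalization and summarization are unstated there. Log base 2 was taken from the spread of the values, 1.67 to 19.35. Array medians were 6.05 to 6.39, samples of a group correlated at 0.974 to 0.987 and 0 pairs were identical.

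Of 28846 probes, 19572 had 1 gene symbol in the platform annotation, 0 several and 9274 none. For 55 genes with several probes the brightest stood for the gene. All 100 receptors matched RefSeq (GRCm38.p6), used for names, synonyms and order. RefSeq proteins were not used here, so pairs by protein identity were not formed and window identities stand in their place.

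Tests used limma 3.58.1 in R 4.3.3, two-sided, with Benjamini-Hochberg adjustment over 19505 genes and a threshold of 0.05. Enrichments came from 1 fit to the 8 within-pool differences, and odor was compared with vehicle in the 8 GFP+ and the 8 GFP- samples. Each p-value thus reflects variation among pools, each of 3 mice. Number 3 occurs on 2 vehicle pools in the titles, and the later code became 4. Fractions of a pool deviated from their group means together (r = 0.109 to 0.249, the best match in its arm in 8 of 8 pools). Same-numbered odor and vehicle pools correlated at 0.114 to 0.242 in GFP+ cells and at 0.066 to 0.332 in GFP- cells. The labels do not say that the number marks shared handling, so the reported fits took these pools as unpaired. A fit with the number as a block is given among the alternatives. The fits were checked on simulated data, 5 times, with changes added to GFP+ cells of odor pools. A change of 1 log2 unit was called for 18.4% of changed genes in the enrichment difference and 66.4% in GFP+ cells. For a change of 2 log2 units these were 83.4% and 97.2%. The simulated fractions of a pool varied independently, unlike the measured ones.

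The text names, per chromosome, the 5 highest and 5 lowest called enrichments of 1 sign in all 4 odor pools, the 3 highest GFP+ signals (a ranking of probes used only to choose names), the extremes of each cluster and the receptors next to the threshold, and the smallest p of each odor comparison. A receptor under the array background on all 4 arrays of a group has only a bound there: the mean of the brighter fraction against the mean of the higher of background and own value. Alternatives were median centring, quantile normalization, a filter on dim genes, a trended prior variance, the mean of probes, another use of the replicate block, and each pool or both pools numbered 3 left out. The receptors, lists and rules were chosen with earlier results of these data known.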

Additional observations from a re-analysis of the deposited data

How the results depend on the processing

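Centring each array on its median moved the median enrichment of all genes to 0.46 in odor and 0.45 in vehicle pools, against 0.11 in both as deposited, and the share of calls that were higher to 86.5% in both arms, against 42.9% in odor and 45.1% in vehicle pools. With quantile normalization these shares were 56.6% and 58.4%. Under centring chromosome 10 had 21 higher and 21 lower calls in odor and 22 higher and 24 lower in vehicle pools, against 13 and 27 and 12 and 30 as deposited, with medians of -0.10 and -0.24, and chromosome 16 had medians of 1.86 and 1.72. Centring shifts all genes of an array alike, so it cannot change the medians relative to the median of all genes. On chromosomes 10 and 16 these were -0.56 and 1.40 in odor and -0.70 and 1.26 in vehicle pools, as deposited. With quantile normalization, which can move them, they were -0.60 and 1.51 in odor and -0.59 and 1.38 in vehicle pools. In vehicle pools the median of chromosome 10 was -0.47 with quantile normalization, -0.55 with the filter on dim genes (11865 genes, 96 of the 100 receptors) and -0.50 without both pools numbered 3, which also left 8 higher calls on chromosome 10 in odor pools. With 1 pool left out in turn, higher calls on chromosome 10 were 8 to 15 in odor and 10 to 15 in vehicle pools, with medians of -0.59 to -0.22 and -0.72 to -0.49. Lower calls on chromosome 16 were 4 to 5 in odor and 4 to 8 in vehicle pools. No call among the 100 receptors changed sign in an enrichment under any alternative run, but calls were lost: of 67 in odor pools 61 remained under centring and 55 without odor replicate 1, the fewest, and of 71 in vehicle pools 63 under centring and 59 without vehicle replicate 4, the fewest. With the replicate number as a block, 0 of 100 receptors were called in GFP+ and 0 in GFP- cells, and without the pool as a replicate block 12 receptors of chromosome 10 were higher and 24 lower in odor pools. In the enrichment difference 0 of 100 receptors were called without the pool as a block, while 1 of all genes was, as with a trended prior variance, against 0 in the reported fit.

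Signal over background limits 24 receptors that were not above it on all 16 arrays, and 4 pools per arm limit the odor comparisons. The part of the cell composition of the GFP- fraction in the receptor enrichments was not tested.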
